A study of Rattus norvegicus with 10 samples.

Results

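The genes that make, break down and sense cyclic AMP in the cell were examined in RNA sequencing of the rat supraoptic nucleus after water deprivation. The set holds the genes named as numbered adenylyl cyclases (Adcy), as phosphodiesterases with a family number and a subtype letter (Pde), or as catalytic and regulatory subunits of protein kinase A (Prkac and Prkar). The rule used gene names alone, in the symbols of the authors' deposited table, and gave 40 Ensembl entries for 39 symbols, of 32402 entries listed. It was chosen with earlier results of these data known. Pde4c has 2 entries. By role these were 10 adenylyl cyclases, 22 entries for catalytic phosphodiesterases, 6 protein kinase A subunits, and 2 genes that carry a phosphodiesterase name without being a catalytic subunit.

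The supraoptic nucleus (SON) is a hypothalamic nucleus whose magnocellular neurones make vasopressin and oxytocin. Polyadenylated RNA was sequenced from SON punches of Wistar Han rats in 2 groups of 5 libraries: dehydrated, from rats left without drinking water for 72 h, and euhydrated, from rats that could drink freely. Water access was allotted at random to cages, and the SON of both sides was taken with a 1 mm corer from 12 slices. The labels give no age or sex and do not say how many animals stand behind a library. The spread that p-values rest on is therefore that between libraries, and may be technical in part.

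Adenylyl cyclases turn ATP into cyclic AMP (cAMP), most of them under the control of G proteins and some under that of calcium. Protein kinase A (PKA) rests as a complex in which regulatory subunits hold catalytic subunits inactive, and cAMP binding to the regulatory subunits frees the catalytic ones, which phosphorylate channels, enzymes and transcription factors such as CREB. Phosphodiesterases (PDEs) end the signal by hydrolysing cAMP, cGMP or both. In the SON, cAMP is known as a signal that acts on vasopressin gene transcription.

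Libraries held 24268398 to 28491926 counts assigned to genes. The 40 entries together took 0.254% to 0.259% of the counts in dehydrated libraries and 0.253% to 0.264% in euhydrated libraries, and these ranges overlapped. Levels are given as CPM, counts scaled by library total and TMM factor, which do not correct for transcript length, so that levels of different genes are not compared. The mean log2 level of 10 magnocellular neurone markers was 7.77 to 8.08 in dehydrated libraries and 7.20 to 7.46 in euhydrated libraries, and all 10 were detected. Only 3 of the 10 were higher at an edgeR adjusted p under 0.05, where 7.79% of all genes tested were, so the mean does not stand for every marker. In punches of tissue, a change in the number of cells of a type and a change in RNA per cell cannot be told apart.

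Water deprivation went with a change in a minority of these genes. Of the 36 entries with enough counts for a test, 7 were higher in dehydrated SON and 1 was lower at an edgeR adjusted p under 0.05, and 28 did not pass. That is 19.4% higher and 2.78% lower, where 7.79% of all 15311 genes tested were higher and 4.9% were lower (12.7% in either direction). The higher genes were the phosphodiesterases Pde3a, Pde8b, Pde8a and Pde5a, the PKA regulatory subunits Prkar1a and Prkar2a, and the calcium-stimulated cyclase Adcy8. The lower gene was the phosphodiesterase Pde2a. The median log2 fold change of the 36 was 0.04, and that of all genes tested was -0.0058. With library totals in place of TMM factors the split was 4 higher and 4 lower, and over all genes 904 higher and 1173 lower in place of 1192 and 750. The count of higher members was 4 without dehydrated library 2, or without euhydrated library 1, 2 or 4, and Pde3a, Pde8b, Prkar1a and Prkar2a passed in each of these. The count of lower members was 2 without dehydrated library 2 or 4, or without euhydrated library 2 or 5.

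**Figure D1:**
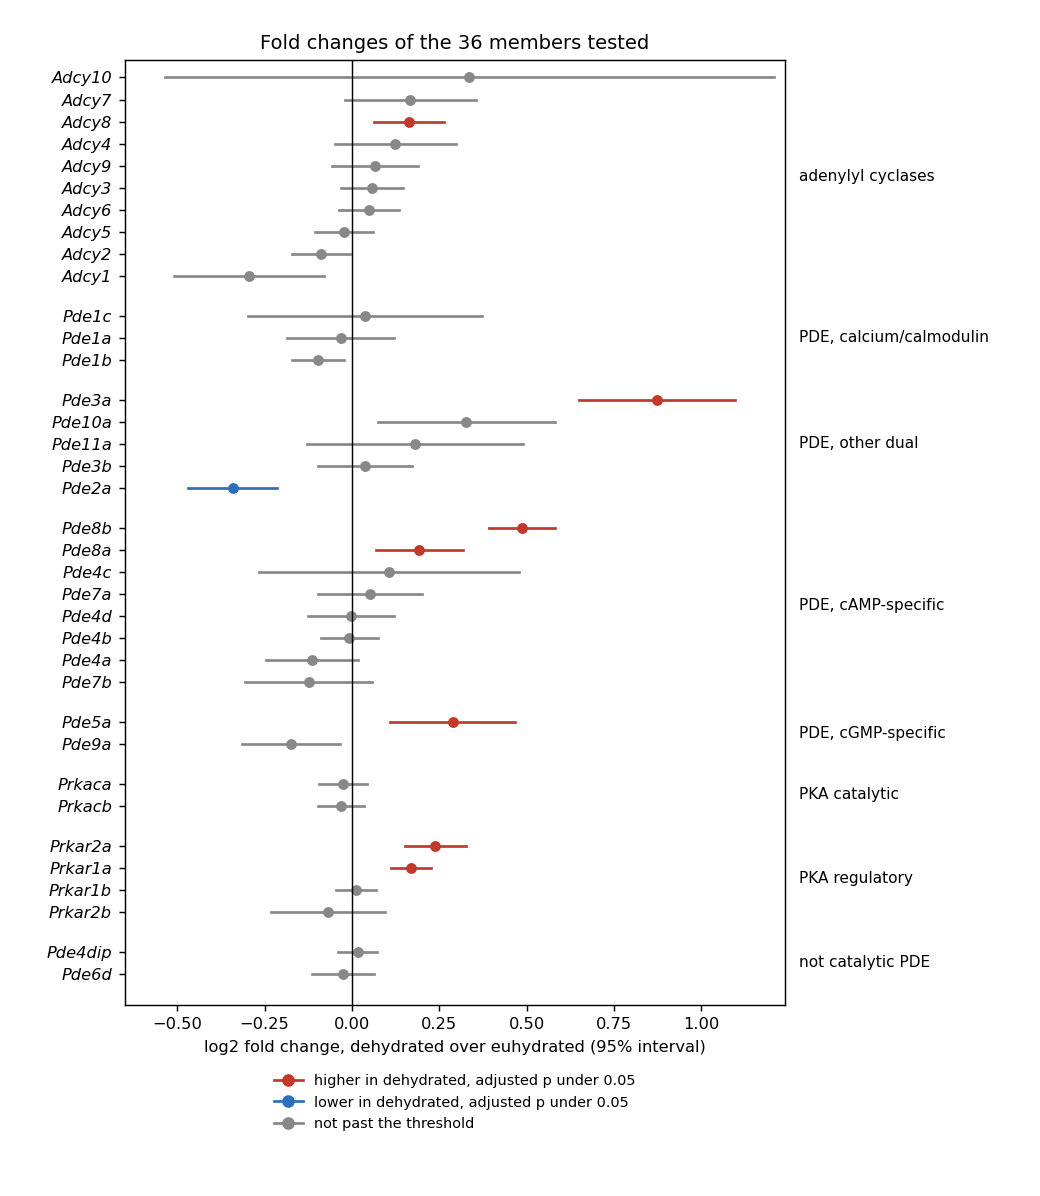
Log2 fold change of each of the 36 tested entries, dehydrated over euhydrated, with its 95% interval as a line, grouped by role from the cyclases at the top to the 2 genes that are not catalytic PDEs at the bottom. Red entries were higher and the blue one lower at an edgeR adjusted p under 0.05. Pde3a lies farthest from 0 among those that passed, at 0.87, and the PKA catalytic subunits lie beside 0 with short intervals.

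The adenylyl cyclases were all detected, and 1 of 10 passed the test, a share near the 12.7% of all genes. Adcy8, which is stimulated by calcium and calmodulin, stood at 48.5, 49.5, 50.0, 47.2 and 50.0 CPM in dehydrated libraries 1 to 5, against 39.3, 44.3, 46.8, 42.3 and 46.1 CPM in euhydrated libraries 1 to 5. The groups did not overlap, and the dehydrated libraries lay within a narrow band. Over all genes tested, 6.9% had non-overlapping groups with the dehydrated libraries higher and 3.97% with them lower. Adcy8 was 1.12-fold higher in dehydrated SON (log2 fold change 0.16 ± 0.05 SE, 95% interval 0.06 to 0.26, edgeR adjusted p = 0.0336). The call was lost when any of dehydrated libraries 1, 2, 3 or 5 or euhydrated libraries 1, 2 or 4 was left out, with adjusted p of 0.0527 to 0.0806. It was also lost with library totals (0.0814) and with the oligodendrocyte (0.0951) or mural cell (0.109) marker level as a covariate.

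Adcy1, the other cyclase best known for stimulation by calcium and calmodulin in neurones, did not pass. It measured 25.7, 26.6, 20.2, 25.8 and 18.0 CPM in dehydrated libraries 1 to 5, and 26.8, 30.0, 30.4, 28.8 and 26.7 CPM in euhydrated libraries 1 to 5. The groups were separated by a narrow gap, with dehydrated libraries 3 and 5 well under the other 8 libraries. The log2 fold change was -0.30 ± 0.10 SE (95% interval -0.51 to -0.08, edgeR adjusted p = 0.0729). In the authors' deposited table, made with DESeq2, Adcy1 has an adjusted p of 0.0219. Here DESeq2 gave 0.0224, limma-voom 0.0479, library totals 0.046, and the edgeR test without dehydrated library 2 gave 0.0455. With marker levels as covariates, the log2 fold change of Adcy1 was -0.46 for mural cells (adjusted p = 0.00415), -0.49 for leptomeningeal fibroblasts (adjusted p = 0.0226) and -0.17 for erythrocytes (adjusted p = 0.493).

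The other 8 cyclases had log2 fold changes of -0.09 to 0.34. Adcy2, which is stimulated by G protein beta-gamma subunits, averaged 129.7 ± 4.20 CPM in dehydrated libraries and 138.0 ± 7.65 CPM in euhydrated libraries (SD, n = 5 each), with an edgeR adjusted p of 0.156, or 0.0406 without euhydrated library 2. Adcy5 and Adcy6, the pair inhibited by calcium, had 95% intervals of -0.11 to 0.06 and -0.04 to 0.14 for the log2 fold change. Adcy3, known from olfactory and primary cilia, had 99.6 ± 4.57 CPM in dehydrated libraries and 95.7 ± 5.14 CPM in euhydrated libraries (adjusted p = 0.424 by edgeR). Adcy7, Adcy4 and Adcy9 had edgeR adjusted p of 0.243, 0.36 and 0.517. Adcy10, the soluble cyclase that responds to bicarbonate, was near the detection limit at 0.886 ± 0.588 CPM in dehydrated libraries and 0.698 ± 0.245 CPM in euhydrated libraries, and the interval of its log2 fold change was wide at this depth, -0.54 to 1.21.

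**Figure D2:**
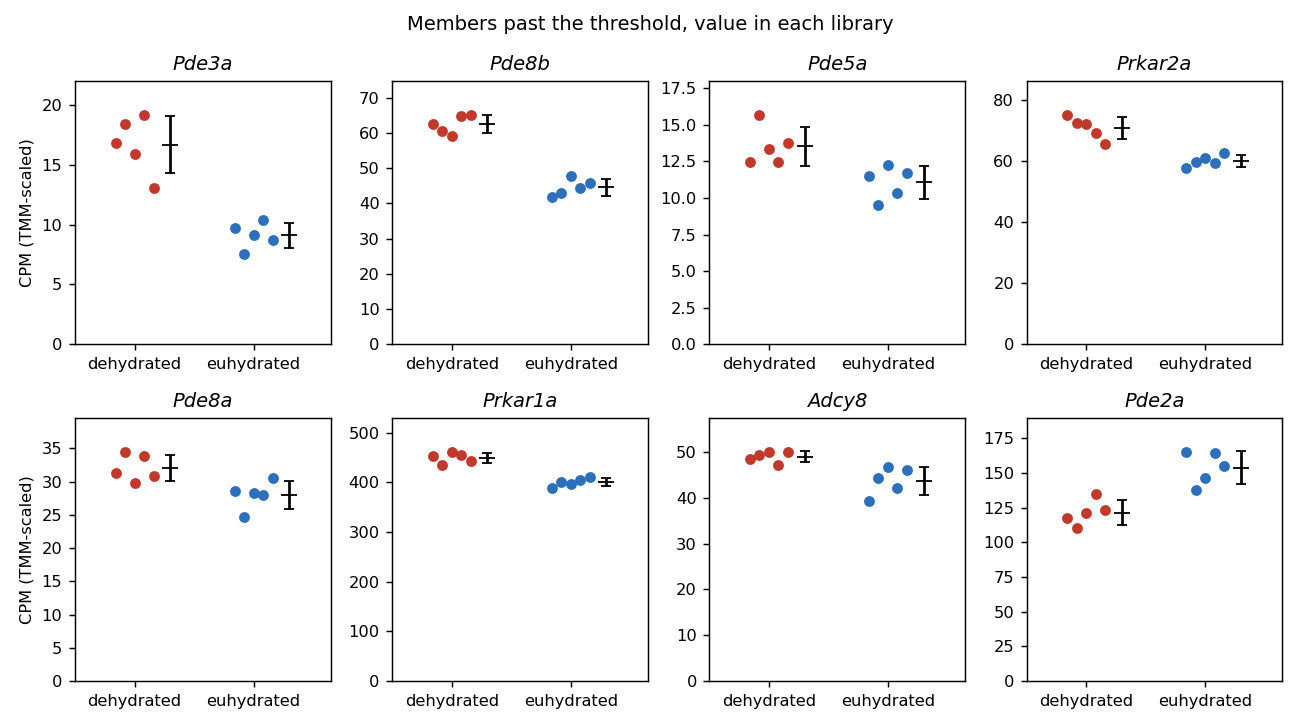
CPM of the 8 members past the threshold in each library, with dehydrated libraries in red on the left of each panel and euhydrated libraries in blue on the right; every axis starts at 0, and the black marks are the mean with 1 SD (n = 5 each). The groups stand apart in 7 panels and overlap in Pde8a, and Pde2a is the panel with the dehydrated libraries lower. These genes were picked by the test on the same libraries, so that their separation is no further evidence. Of all 36 entries tested, 6 stood apart with the dehydrated libraries higher (16.7%) and 2 with them lower (5.56%). Over all genes tested these shares were 6.9% and 3.97%.

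Among the phosphodiesterases that hydrolyse both cyclic nucleotides, Pde3a and Pde2a moved in opposite directions. Pde3a, the cAMP-hydrolysing enzyme that cGMP inhibits, stood at 16.8, 18.4, 15.9, 19.1 and 13.0 CPM in dehydrated libraries 1 to 5. In euhydrated libraries 1 to 5 it stood at 9.72, 7.55, 9.14, 10.4 and 8.70 CPM. The lowest dehydrated library, 13.0 CPM, lay above the highest euhydrated one. Pde3a was 1.83-fold higher in dehydrated SON (log2 fold change 0.87 ± 0.10 SE, 95% interval 0.65 to 1.10, edgeR adjusted p = 5.92e-05). By size it was number 95 of the 1192 genes that were higher, whose median rise was 1.19-fold. It passed in all 23 alternatives run, with log2 fold changes of 0.72 to 0.98.

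Pde2a, the enzyme that cGMP stimulates to hydrolyse cAMP, measured 117, 110, 121, 135 and 123 CPM in dehydrated libraries 1 to 5. The euhydrated libraries 1 to 5 measured 165, 138, 146, 165 and 155 CPM. The highest dehydrated library, library 4, lay just under the lowest euhydrated one, library 2. Pde2a was 1.27-fold lower in dehydrated SON (log2 fold change -0.34 ± 0.06 SE, 95% interval -0.47 to -0.21, edgeR adjusted p = 0.0021), and was number 81 of 750 lower genes by p. The ratio of Pde3a to Pde2a CPM was 0.106 to 0.167 in dehydrated libraries and 0.0548 to 0.0631 in euhydrated libraries. Since the groups of each gene stood apart in opposite directions, this ratio could not overlap and is no further evidence. Pde2a shares its place in the annotation with a long non-coding RNA and the microRNA gene Mir139, and how the counting treated strand is not stated, so reads of overlapping genes cannot be told apart.

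Pde3b, the close relative of Pde3a known from fat and liver, averaged 16.6 ± 1.06 CPM in dehydrated libraries and 16.2 ± 1.04 CPM in euhydrated libraries (SD, n = 5 each). Its log2 fold change of 0.04 had an interval of -0.10 to 0.17 (edgeR adjusted p = 0.759). The Pde3a to Pde3b ratio was 0.760 to 1.21 in dehydrated libraries and 0.444 to 0.659 in euhydrated libraries. Pde10a, known best from striatal neurones, did not pass. It stood at 37.1, 30.7, 33.3, 42.0 and 30.5 CPM in dehydrated libraries 1 to 5, against 27.4, 21.9, 32.2, 26.4 and 30.4 CPM in euhydrated libraries 1 to 5. The groups overlapped, and dehydrated library 4 was the highest of all 10. Its log2 fold change was 0.33 ± 0.11 SE, with an edgeR adjusted p of 0.0926, where the authors' deposited table has 0.0181 and DESeq2 here gave 0.0187. A list of 13 markers of striatal and amygdalar neurones had a mean log2 level of 3.86 to 4.13 in dehydrated libraries and 3.85 to 3.96 in euhydrated libraries. Pde11a was low, at 2.73 ± 0.460 CPM in dehydrated libraries and 2.41 ± 0.289 CPM in euhydrated libraries, and did not pass (edgeR adjusted p = 0.477).

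The cAMP-specific phosphodiesterases had 2 members higher of 8 tested, both of the high-affinity PDE8 family, which the broad inhibitor IBMX does not block; over all genes tested 7.79% were higher. Pde8b stood at 62.5, 60.6, 59.2, 64.7 and 65.0 CPM in dehydrated libraries 1 to 5. The euhydrated libraries 1 to 5 stood at 41.7, 42.9, 47.7, 44.4 and 45.8 CPM. All dehydrated libraries lay well above all euhydrated ones, with little spread in either group. Pde8b was 1.40-fold higher in dehydrated SON (log2 fold change 0.49 ± 0.04 SE, 95% interval 0.39 to 0.58, edgeR adjusted p = 3.1e-06). It had the smallest p of the set, number 46 of 1192 higher genes, and passed in all 23 alternatives with log2 fold changes of 0.46 to 0.52. Pde8b overlaps 4 annotated non-coding genes and Pde8a a small nucleolar RNA gene, whose reads may be shared.

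Its paralog Pde8a measured 31.3, 34.5, 29.8, 33.8 and 30.8 CPM in dehydrated libraries 1 to 5, and 28.6, 24.7, 28.3, 28.0 and 30.5 CPM in euhydrated libraries 1 to 5. The groups overlapped, since euhydrated library 5 lay above dehydrated library 3. Pde8a was 1.14-fold higher (log2 fold change 0.19 ± 0.06 SE, 95% interval 0.07 to 0.32, edgeR adjusted p = 0.0411). The call was lost when any of dehydrated libraries 1, 2 or 4 or euhydrated libraries 1 to 4 was left out, with adjusted p of 0.0579 to 0.0998, and with library totals (0.0713), the replicate block (0.0565), or the striatal (0.0652) or mural cell (0.115) marker level as a covariate. The ratio of Pde8b to Pde8a CPM was 1.76 to 2.11 in dehydrated libraries and 1.46 to 1.74 in euhydrated libraries.

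The PDE4 enzymes, the targets of rolipram, did not pass. Pde4b, known as a gene that cAMP induces, stood at 66.4, 67.7, 70.3, 73.2 and 71.8 CPM in dehydrated libraries 1 to 5, against 73.5, 67.8, 68.3, 71.6 and 69.8 CPM in euhydrated libraries 1 to 5. The groups lay over each other, and the 95% interval of the log2 fold change was -0.09 to 0.07 (edgeR adjusted p = 0.933). Pde4d had an interval of -0.12 to 0.12, and Pde4a one of -0.25 to 0.02. With the mural cell marker level as a covariate Pde4a passed (log2 fold change -0.21, edgeR adjusted p = 0.044). Pde4a measured 23.4 to 28.5 CPM in dehydrated libraries and 26.2 to 31.9 CPM in euhydrated libraries. Pde4c averaged 1.88 ± 0.410 CPM in dehydrated libraries and 1.74 ± 0.275 CPM in euhydrated libraries, and its second Ensembl entry held 3 counts over all 10 libraries and was not tested. Pde7a and Pde7b, cAMP-specific enzymes that rolipram does not block, had log2 fold changes of 0.05 and -0.12, with edgeR adjusted p of 0.698 and 0.387.

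The starts of 4 of the 5 phosphodiesterase genes that passed are shown, for the 3 with the smallest p and for Pde8a beside its paralog, because promoters of cAMP-responsive genes often carry the cAMP response element, the site that CREB binds. RefSeq promoter windows of assembly GRCr8, 250 bases before and 50 bases after a start, were found for 27 of the 39 symbols (41 windows) and for 6 of the 8 genes that passed. Capitals mark the core TGACG or CGTCA of the element and the GC box GGGCGG or CCGCCC, searched on both strands. The Pde8b window lies at chr2:28116002-28116301 on the minus strand, the Pde8a window at chr1:144575219-144575518, the Pde3a window at chr4:175904026-175904325 and the second Pde2a window at chr1:165265759-165266058, all 3 on the plus strand.
Pde8b: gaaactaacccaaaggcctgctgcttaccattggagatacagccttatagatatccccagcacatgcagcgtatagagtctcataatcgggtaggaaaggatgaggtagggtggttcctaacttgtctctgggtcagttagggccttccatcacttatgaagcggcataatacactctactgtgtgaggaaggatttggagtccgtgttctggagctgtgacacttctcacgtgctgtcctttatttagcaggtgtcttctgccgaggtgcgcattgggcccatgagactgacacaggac
Pde8a: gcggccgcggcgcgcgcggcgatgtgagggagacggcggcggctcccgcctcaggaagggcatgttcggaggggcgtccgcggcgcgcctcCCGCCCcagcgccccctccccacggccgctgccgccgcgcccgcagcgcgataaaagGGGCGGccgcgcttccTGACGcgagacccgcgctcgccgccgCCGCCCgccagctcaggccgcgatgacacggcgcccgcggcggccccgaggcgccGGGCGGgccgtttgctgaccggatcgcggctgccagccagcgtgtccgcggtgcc
Pde3a: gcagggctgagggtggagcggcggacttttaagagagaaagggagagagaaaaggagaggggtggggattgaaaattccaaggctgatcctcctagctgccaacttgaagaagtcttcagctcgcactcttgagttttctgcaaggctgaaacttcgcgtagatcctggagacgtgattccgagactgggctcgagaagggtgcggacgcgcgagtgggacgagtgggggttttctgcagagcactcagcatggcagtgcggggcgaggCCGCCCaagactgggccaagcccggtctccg
Pde2a: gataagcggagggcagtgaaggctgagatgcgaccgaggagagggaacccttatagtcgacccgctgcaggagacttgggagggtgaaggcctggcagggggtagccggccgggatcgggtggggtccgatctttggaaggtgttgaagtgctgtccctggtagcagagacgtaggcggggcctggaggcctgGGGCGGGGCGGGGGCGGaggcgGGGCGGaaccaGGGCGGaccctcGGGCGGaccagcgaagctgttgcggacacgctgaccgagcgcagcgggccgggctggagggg

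In these windows Pde8a had 1 TGACG core, 86 bases before the start, and 4 GC boxes. Pde3a had 1 GC box, 19 bases after the start, and the window of Pde5a, not printed, had GC boxes 169 and 149 bases before the start. Pde8b had no match to any of the motifs searched. The second Pde2a window had 6 GC boxes, of which those 57 and 52 bases before the start share a base, and the window of its other start had none. The palindrome TGACGTCA was in 0 of the 41 windows of the set and in 1.83% of the 33469 windows of all genes. The core was in 10 of the 41 windows and in 21.2% of all windows, and the GC box in 22 of the 41 windows and in 33.1% of all. The AP-1 site TGANTCA was in 2 of the 41 windows, those of Pde4b and Pde6b, and in 7.33% of all windows. Which start is used in the SON was not measured.

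The calcium- and calmodulin-stimulated PDE1 enzymes did not pass. Pde1b stood at 76.2, 72.1, 75.1, 73.2 and 78.0 CPM in dehydrated libraries 1 to 5, against 82.4, 80.3, 82.7, 79.1 and 76.2 CPM in euhydrated libraries 1 to 5. The groups overlapped through euhydrated library 5. Its log2 fold change was -0.10 ± 0.04 SE (95% interval -0.17 to -0.02, edgeR adjusted p = 0.0882, or 0.0352 with library totals and 0.0427 with the oligodendrocyte covariate). Pde1a had an interval of -0.18 to 0.12. Pde1c varied most among the dehydrated libraries, at 5.35 to 10.4 CPM, against 6.58 to 8.62 CPM in euhydrated libraries, with an interval of -0.30 to 0.37.

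Of the cGMP-specific phosphodiesterases, 2 of 5 had enough counts for a test. Pde5a, the target of sildenafil, stood at 12.4, 15.7, 13.4, 12.4 and 13.8 CPM in dehydrated libraries 1 to 5, against 11.5, 9.52, 12.3, 10.3 and 11.7 CPM in euhydrated libraries 1 to 5. The groups did not overlap, though dehydrated library 4 and euhydrated library 3 lay close together. Pde5a was 1.22-fold higher in dehydrated SON (log2 fold change 0.29 ± 0.08 SE, 95% interval 0.11 to 0.47, edgeR adjusted p = 0.0353). The call was lost without dehydrated library 2, 3 or 5 or euhydrated library 1, 2 or 4 (adjusted p of 0.0507 to 0.0915), and with library totals (0.0504), the replicate block (0.0533) or the oligodendrocyte marker level as a covariate (0.0505). Pde9a, a high-affinity cGMP enzyme, did not pass. It measured 29.1, 26.8, 27.6, 32.0 and 28.9 CPM in dehydrated libraries 1 to 5, and 36.2, 31.3, 32.9, 34.5 and 28.1 CPM in euhydrated libraries 1 to 5. Euhydrated library 5 lay among the dehydrated ones. The log2 fold change of Pde9a was -0.17 ± 0.07 SE (edgeR adjusted p = 0.0973, or 0.0246 without euhydrated library 5, 0.0492 without dehydrated library 4 and 0.0483 with library totals). Pde6a, Pde6b and Pde6c, the photoreceptor enzymes, held 20, 14 and 8 counts over all 10 libraries and were not tested.

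Both PKA regulatory subunits of the alpha kind were higher in dehydrated SON, and no other PKA subunit passed. That is 2 of the 6 PKA subunits tested, or 33.3%, where 7.79% of all genes tested were higher. Prkar1a, the type I alpha regulatory subunit, stood at 454, 435, 461, 455 and 442 CPM in dehydrated libraries 1 to 5. The euhydrated libraries 1 to 5 stood at 389, 400, 396, 404 and 411 CPM. The groups did not overlap and varied little within themselves. Prkar1a was 1.12-fold higher (log2 fold change 0.17 ± 0.03 SE, 95% interval 0.11 to 0.23, edgeR adjusted p = 0.000636) and passed in all 23 alternatives. Prkar2a, the type II alpha regulatory subunit, stood at 74.9, 72.3, 72.1, 69.1 and 65.6 CPM in dehydrated libraries 1 to 5. The euhydrated libraries 1 to 5 stood at 57.6, 59.6, 61.1, 59.2 and 62.5 CPM. These groups did not overlap either, with dehydrated library 5 nearest to the euhydrated range. Prkar2a was 1.18-fold higher (log2 fold change 0.24 ± 0.04 SE, 95% interval 0.15 to 0.33, edgeR adjusted p = 0.00107). Both genes overlap other annotated genes, so reads may be shared.

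The beta regulatory subunits, which are the forms enriched in brain, did not pass. Prkar1b averaged 270.9 ± 7.18 CPM in dehydrated libraries and 268.7 ± 4.73 CPM in euhydrated libraries (SD, n = 5 each), with an interval of -0.05 to 0.07. Prkar2b averaged 56.4 ± 5.79 CPM in dehydrated libraries and 59.2 ± 5.37 CPM in euhydrated libraries, with an interval of -0.23 to 0.09. The edgeR adjusted p was 0.836 for Prkar1b and 0.622 for Prkar2b. The ratio of Prkar1a to Prkar1b CPM was 1.60 to 1.74 in dehydrated libraries and 1.44 to 1.55 in euhydrated libraries, without overlap. That of Prkar2a to Prkar2b was 1.06 to 1.51 in dehydrated libraries and 0.869 to 1.14 in euhydrated libraries, and these ranges overlapped.

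The groups overlapped for both catalytic subunits, and neither passed. Prkaca measured 197.9 to 219.0 CPM in dehydrated libraries and 202.8 to 217.4 CPM in euhydrated libraries, with a log2 fold change of -0.02 and an interval of -0.09 to 0.04 (edgeR adjusted p = 0.684). Prkacb measured 129.2 to 142.0 CPM in dehydrated libraries and 136.4 to 142.7 CPM in euhydrated libraries, with a log2 fold change of -0.03 and an interval of -0.10 to 0.03 (edgeR adjusted p = 0.556). The ratio of Prkar1a to Prkaca CPM was 2.04 to 2.30 in dehydrated libraries and 1.82 to 2.02 in euhydrated libraries. That of Prkar2a to Prkaca was 0.323 to 0.356 in dehydrated libraries and 0.270 to 0.308 in euhydrated libraries. Neither ratio overlapped between the groups. These and the other ratios given were described without a test, since the pairs were chosen after the values were seen.

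The 2 genes that are not catalytic PDEs did not pass. Pde4dip, or myomegalin, a centrosome and Golgi scaffold that binds PDE4D, averaged 237.1 ± 4.21 CPM in dehydrated libraries and 234.4 ± 5.03 CPM in euhydrated libraries (SD, n = 5 each, edgeR adjusted p = 0.75). Pde6d, a chaperone of prenylated proteins, had a log2 fold change of -0.02 with an interval of -0.11 to 0.06. Over the 22 members that did not pass and had a mean of at least 10 CPM, the 95% intervals of the log2 fold change ran from -0.51 at the lowest to 0.58 at the highest.

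**Figure D3:**
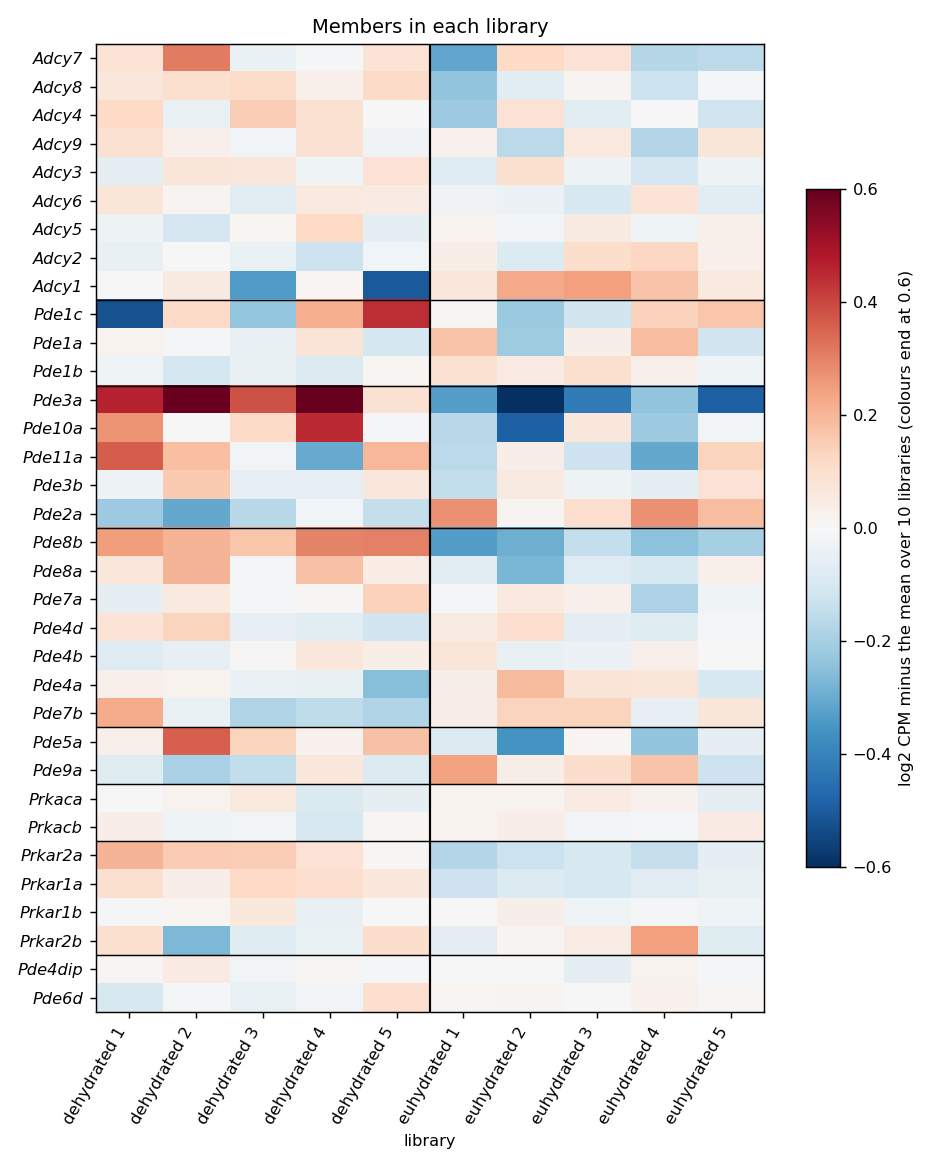
Log2 CPM of the 34 members with a mean of at least 2 CPM in each of the 10 libraries, minus the gene's mean over all libraries, with dehydrated libraries on the left, euhydrated libraries on the right, and colours ending at 0.6 in either direction. The rows of Pde3a and Pde8b are red in all dehydrated libraries and blue in all euhydrated ones. Pde2a shows the reverse, except that dehydrated library 4 and euhydrated library 2 lie close to its mean and are nearly white. The rows of Prkaca, Prkacb and Prkar1b are pale throughout.

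Markers of other cell types were read in the same libraries. Pericytes and vascular smooth muscle are known to carry Pde3a and Pde5a. The mean log2 level of 9 mural cell markers was 5.78 to 6.18 in dehydrated libraries and 5.77 to 5.98 in euhydrated libraries, and their summed level was 776 to 1099 CPM in dehydrated libraries and 755 to 982 CPM in euhydrated libraries. Of these markers, 1 of 9 was higher by the edgeR test, where 7.79% of all genes tested were. With that mean level as a covariate, the log2 fold change was 0.77 for Pde3a and 0.28 for Pde5a, and the edgeR adjusted p was 0.000912 for Pde3a and 0.107 for Pde5a.

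The 7 leptomeningeal fibroblast markers tested had a mean log2 level of 7.16 to 7.43 in dehydrated libraries and 6.98 to 7.32 in euhydrated libraries. Their summed level was 3391 to 4331 CPM in dehydrated libraries and 2381 to 4178 CPM in euhydrated libraries, none of the 7 passed the test, and Col1a2 is listed at 0 in all libraries. With that level as a covariate, Pde3a, Pde8b and Prkar1a passed, while Pde2a (log2 fold change -0.27, edgeR adjusted p = 0.0726), Prkar2a (0.19, 0.0623), Adcy8 (adjusted p = 0.238), Pde5a (0.355) and Pde8a (0.248) did not. The 7 erythrocyte markers tested summed to 590.3 to 1428 CPM in dehydrated libraries and 1027 to 2058 CPM in euhydrated libraries. Of these 7, 1 was lower by the edgeR test, where 4.9% of all genes tested were. With the erythrocyte level as a covariate, Adcy8, Pde5a and Pde8a were the calls lost (edgeR adjusted p of 0.125, 0.185 and 0.14). What part such cells had in the results was not tested.

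**Figure D4:**
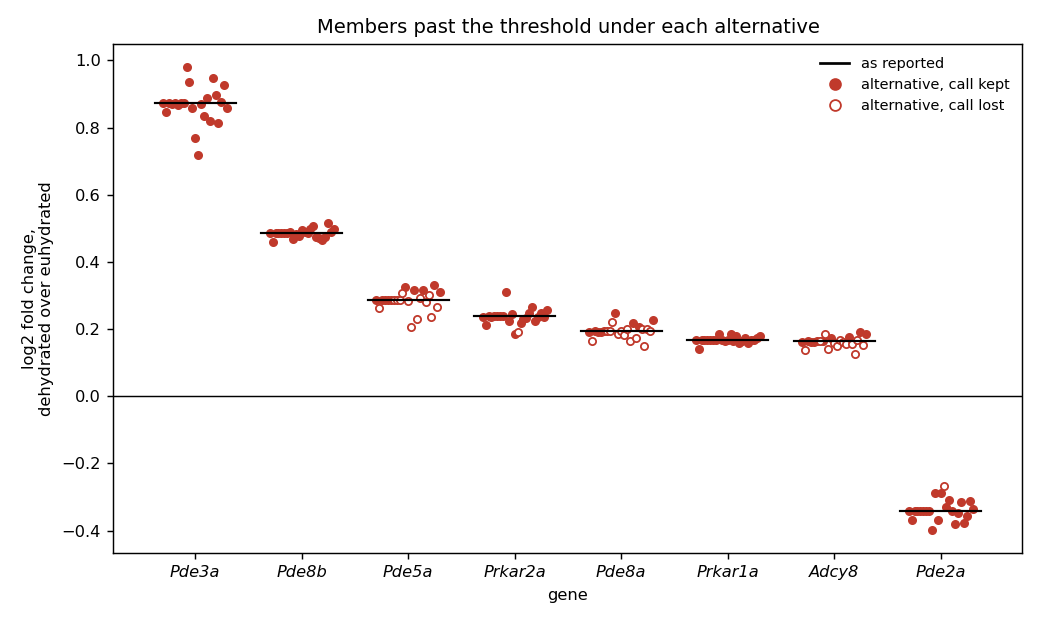
Log2 fold change of each member past the threshold under each of the 23 alternatives, with the reported value as a black line, filled points where the call was kept and open points where it was lost. Pde3a, Pde8b and Prkar1a have filled points throughout, Prkar2a and Pde2a have 1 open point each, and Adcy8, Pde5a and Pde8a have open points among the filled ones.

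Other genes were read from lists of anchoring proteins, PKA inhibitors, other cAMP sensors, G protein alpha subunits, phosphatase inhibitors, CREB factors, cGMP signalling and export pumps. A further list held genes with a phosphodiesterase name outside the rule, which need not act on cAMP or cGMP. Without members of the set, these lists named 77 genes, of which 63 were tested. Of the 63, 7 were higher and 3 lower, which is 11.1% and 4.76% where 7.79% and 4.9% of all genes were, and 53 did not pass. The median log2 fold change of the 63 was 0.03.

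Of 11 CREB factors, coactivators and salt-inducible kinases tested, 2 were higher and 1 was lower. That is 18.2% and 9.09%, where 7.79% and 4.9% of all genes were. Sik1, a salt-inducible kinase that restrains CREB coactivators and is itself a CREB target, stood at 26.5, 27.1, 30.9, 20.5 and 24.0 CPM in dehydrated libraries 1 to 5, against 16.6, 14.4, 15.7, 16.4 and 19.4 CPM in euhydrated libraries 1 to 5. Sik1 was 1.57-fold higher, without overlap (log2 fold change 0.65 ± 0.10 SE, edgeR adjusted p = 0.00117). Crem, which encodes CREB-related activators and the inducible repressor ICER, stood at 19.3, 18.9, 18.4, 18.6 and 16.4 CPM in dehydrated libraries 1 to 5, against 12.4, 10.7, 12.4, 13.7 and 13.5 CPM in euhydrated libraries 1 to 5. Crem was 1.46-fold higher, without overlap (log2 fold change 0.55 ± 0.07 SE, edgeR adjusted p = 0.000122). Both passed in all alternatives run. Crtc1, a CREB coactivator, was lower with overlapping groups, at 48.6 ± 1.10 CPM in dehydrated libraries and 53.1 ± 2.63 CPM in euhydrated libraries (edgeR adjusted p = 0.0493). Its call was lost when any library other than euhydrated library 4 was left out (0.0531 to 0.117), and with each of the 5 marker covariates (0.0652 to 0.247).

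Upstream and beside PKA, Gnas, which encodes the stimulatory G protein alpha subunit, averaged 1497 ± 53.6 CPM in dehydrated libraries and 1349 ± 34.1 CPM in euhydrated libraries (SD, n = 5 each, log2 fold change 0.15 ± 0.03 SE, edgeR adjusted p = 0.00471). Of 7 G protein alpha subunit genes tested, Gnas alone passed, which is 14.3% higher where 7.79% of all genes were. The anchoring protein genes Akap17a and Akap17b were higher, with log2 fold changes of 0.20 ± 0.04 and 0.27 ± 0.06 SE (edgeR adjusted p of 0.00412 and 0.00546). The other 14 of the 16 in their list, Pde4dip included, did not pass. That is 12.5% higher, where 7.79% of all genes were higher and 12.7% passed in either direction. Gnas, Akap17a and Akap17b lost their calls with the erythrocyte level as a covariate (adjusted p of 0.119, 0.134 and 0.155), and Akap17a with the leptomeningeal level (0.0981). Hcn3, a gene of the pacemaker channel family, averaged 90.0 ± 4.85 CPM in dehydrated libraries and 68.8 ± 3.21 CPM in euhydrated libraries. It was the 1 gene past the threshold of 10 tested in the list of other cAMP sensors. That is 10% higher, where 7.79% of all genes were. Whether cAMP acts on this channel was not tested. Ppp1r1a, the PKA-activated inhibitor of protein phosphatase 1, stood at 98.3, 119, 114, 106 and 108 CPM in dehydrated libraries 1 to 5, against 87.0, 80.8, 95.7, 83.4 and 61.0 CPM in euhydrated libraries 1 to 5. Its log2 fold change was 0.42 ± 0.11 SE (edgeR adjusted p = 0.0309), and the call was lost without dehydrated library 2, 3, 4 or 5 or euhydrated library 1, 2 or 4 (0.052 to 0.0743). With the leptomeningeal level as a covariate the log2 fold change of Ppp1r1a was 0.22 (adjusted p = 0.298), and the call was lost with the erythrocyte, oligodendrocyte and mural cell levels too (0.0853 to 0.232). Of the 5 phosphatase inhibitor genes tested, Ppp1r1a alone passed, which is 20% higher where 7.79% of all genes were. The other 4 had log2 fold changes on both sides of 0, from -0.47 to 0.19. Pkia, a peptide inhibitor of the catalytic subunits, averaged 109 ± 4.18 CPM in dehydrated libraries and 105 ± 4.69 CPM in euhydrated libraries (edgeR adjusted p = 0.434).

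On the cGMP side, 2 of 8 tested genes were lower and none was higher, where 4.9% and 7.79% of all genes were. Prkg2, cGMP-dependent kinase II, stood at 7.75, 10.1, 8.31, 10.7 and 9.0 CPM in dehydrated libraries 1 to 5, against 11.6, 14.5, 11.1, 10.8 and 11.4 CPM in euhydrated libraries 1 to 5. The groups met without overlap at dehydrated library 4 and euhydrated library 4. Its log2 fold change was -0.38 ± 0.10 SE (edgeR adjusted p = 0.0221), and the call was lost without dehydrated library 1 or 3 or euhydrated library 2 (0.0559 to 0.0601). Gucy1a1, a subunit of the nitric oxide receptor guanylyl cyclase, stood at 80.9, 92.2, 85.8, 99.8 and 93.4 CPM in dehydrated libraries 1 to 5, against 102, 107, 98.2, 103 and 113 CPM in euhydrated libraries 1 to 5. The groups overlapped at dehydrated library 4, and the log2 fold change was -0.21 ± 0.05 SE (edgeR adjusted p = 0.0155). With marker levels as covariates, Gucy1a1 had a log2 fold change of -0.13 for mural cells (adjusted p = 0.134) and -0.11 for leptomeningeal fibroblasts (adjusted p = 0.352), and an adjusted p of 0.0685 for erythrocytes. For Prkg2 the adjusted p was 0.13 with the mural cell level, 0.206 with the leptomeningeal, 0.0771 with the erythrocyte and 0.0598 with the oligodendrocyte level. Outside cGMP signalling, Pde12, listed for its phosphodiesterase name alone, and the export pump gene Abcc5 did not pass (edgeR adjusted p of 0.956 and 0.607).

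**Figure D5:**
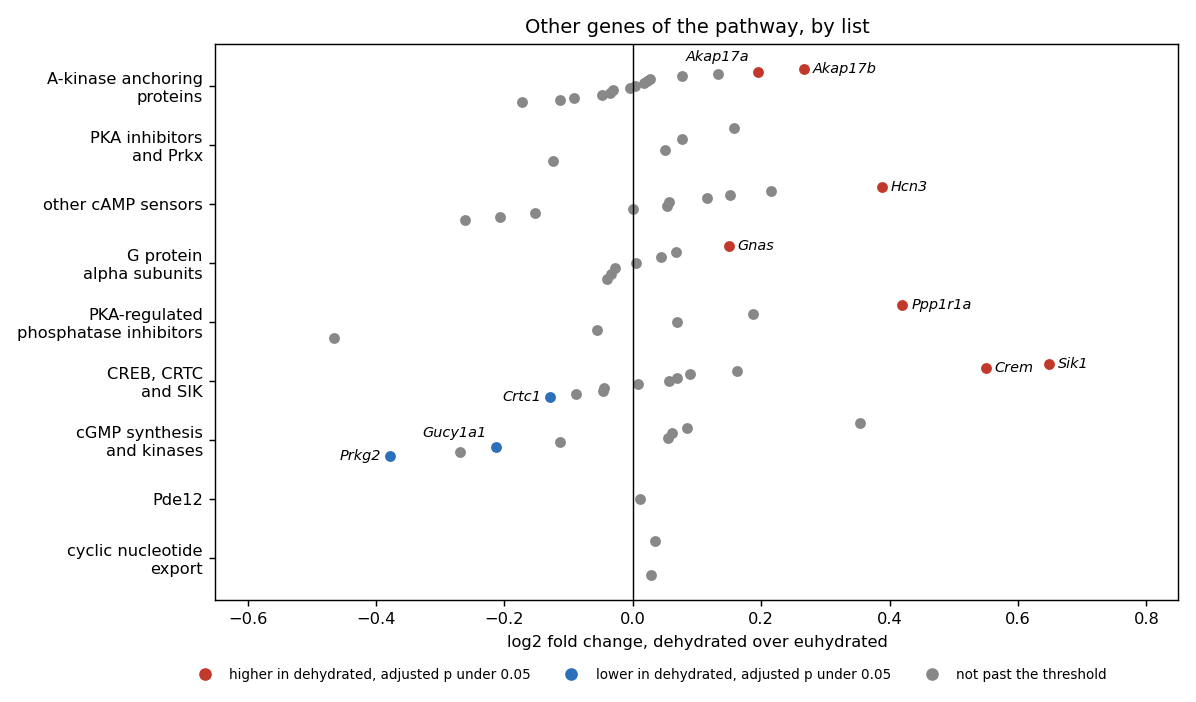
Log2 fold changes of the other pathway genes tested, dehydrated over euhydrated, by list; points are spread vertically within a list for legibility, red points were higher and blue points lower at an edgeR adjusted p under 0.05, and grey points did not pass. Sik1 and Crem lie farthest to the right, and of the 3 blue points, Prkg2 and Gucy1a1 belong to cGMP signalling and Crtc1 to the CREB list.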

How the data were processed

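The authors deposited a table of raw counts, whole numbers for each Ensembl gene in each of the 10 libraries. The authors also deposited their DESeq2 comparison, holding log2 fold changes and p-values, per the file headers. The kit was a stranded one for mRNA, per the labels' protocols. The submitters' processing notes name CASAVA, FastQC, STAR, featureCounts and DESeq2 1.28.1. Genome build, annotation release and the treatment of strand in counting: not given in the sources used here. In that table, 10 columns of normalised values per sample were not used. Symbols were those paired with the identifiers in that table.

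Genes passing edgeR's filterByExpr (15311 of 32402) were scaled by TMM factors and tested with edgeR 4.0.16 (glmQLFit, robust, and glmQLFTest) in R 4.3.3, dehydrated against euhydrated, with p-values adjusted by Benjamini-Hochberg over every gene tested and called under 0.05. Errors of fold changes are SE with 95% intervals on the model's degrees of freedom. Marker levels are mean log2 CPM with a prior count of 2, compared by exact two-sided permutation over 252 labellings, whose smallest p is 0.00794, and adjusted over the 14 lists. The test was tried on simulated data first. The alternatives were other scalings, filters and tools (DESeq2 1.42.0, limma-voom in limma 3.58.1), a stricter threshold, a replicate block, marker levels as covariates, and each library left out.

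Members, lists and the rule for named genes were chosen with earlier results of these data known. The rule names every member, each pathway gene past the threshold and, where a list had none, its most abundant gene. Titles and descriptions number euhydrated columns 3 to 5 differently, and these were tied to the group only. No library was a duplicate of another: within groups, pairs of libraries had a chi-square of 4.86 to 12.1 per degree of freedom (genes of 20 counts or more). Total counts of 24268398 to 28491926 set the precision. Promoter windows came from RefSeq (GRCr8).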

Additional observations from a re-analysis of the deposited data

Results flagged for a closer look

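In each group of 5 libraries, every tested member was checked for a library that stands apart from the other 4, by the gap to its nearest neighbour as a share of the group's range. Of 72 such checks, 2 passed the 95% limit of 0.71, where chance gives about 1 in 20. Pde4a stood at 23.4 CPM in dehydrated library 5, where the other 4 dehydrated libraries stood at 27.1 to 28.5 CPM. Prkaca stood at 203 CPM in euhydrated library 5, where the other 4 euhydrated libraries stood at 213 to 217 CPM. Neither gene passed the test between the groups.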

How the results depend on the processing

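Over 23 alternatives, Pde3a, Pde8b and Prkar1a passed in all; of 184 pairs of a called member and an alternative, 142 kept the call, 42 lost it and 0 reversed, and of 643 such pairs of the other 28 members 15 gained a call and 30 reversed. The higher and lower counts of members, 7 and 1, became 4 and 4 with library totals, and lower was 2 with DESeq2, limma-voom or the oligodendrocyte covariate. Higher was 4 at an adjusted p of 0.01 and with the erythrocyte covariate. Covariates added after seeing the data gave 4 and 3 (mural cells) and 3 and 1 (leptomeningeal fibroblasts), where the lower call was Adcy1, not Pde2a. Genes of the 15311 called higher and lower, 1192 and 750, became 904 and 1173 with library totals (43.5% of calls higher in place of 61.4%, median log2 fold change -0.033), 658 and 233 at 0.01, 583 and 201 (erythrocytes), 583 and 210 (leptomeningeal), with 408 lower (mural). Calls in the pathway lists, 10, became 6, 3, 5 and 6 at 0.01 and with the erythrocyte, leptomeningeal and mural covariates. Leaving out 1 library gave 4 to 7 members higher, 1 to 2 lower, 955 to 1113 and 516 to 689 genes and 7 to 9 pathway calls. The cause was not tested.

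Some log2 fold changes changed sign, none of them past the threshold. They were Adcy10 (-0.10), Pde1c (-0.14), Pde4d (0.0527) and Pde7a (-0.0325) with the erythrocyte covariate, Pde1c with limma-voom (-0.0024), Pde4d with the striatal covariate (0.0038), Pde4b with the oligodendrocyte (0.0197), mural (0.0339) and leptomeningeal (0.0352) covariates, and Pde6d with the mural (0.025) and leptomeningeal (0.021) ones. Library totals turned Pde4dip (-0.0109), Prkar1b (-0.0152) and Pde12 (-0.0158). With 1 library left out, log2 fold changes ran over -0.0611 to 0.524 (Adcy10), -0.0859 to 0.0131 (Pde1a), -0.0824 to 0.151 (Pde1c), -0.0242 to 0.0105 (Pde4b), -0.0188 to 0.208 (Pde4c), -0.0368 to 0.0254 (Pde4d), -0.00269 to 0.0238 (Prkar1b), -0.0519 to 0.0618 (Pde12).

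Replicate numbers 1 and 2 are tied to labels in both groups. Deviations of same-numbered libraries correlated at -0.0682 and 0.14, so the numbers were not taken as pairs. With a replicate block for these numbers, 6 members were higher and 1 lower, 1146 and 715 genes were called, and 8 pathway genes; Pde5a (adjusted p = 0.0533) and Pde8a (adjusted p = 0.0565) lost their calls and Pde10a (adjusted p = 0.0403) gained one.

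Depth limits Adcy10, Pde4c, Pde11a and the PDE6 genes. The kit captures polyadenylated RNA of a whole punch, so that cell types, protein and enzyme activity were not measured.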

Other observations

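The 14 cell type marker lists were compared as mean log2 CPM, dehydrated minus euhydrated, over 5 libraries a group. Magnocellular neurone markers differed by 0.56, with all dehydrated libraries above all euhydrated ones (exact permutation p = 0.00794, the smallest possible, adjusted 0.111). Of these 10 markers, 3 were higher by the edgeR test, where 7.79% of all genes were. Erythrocyte markers differed by -0.84 (exact p = 0.0397, adjusted 0.139), photoreceptor markers by 0.45 at levels near the detection limit (exact p = 0.0238, adjusted 0.111), and leptomeningeal fibroblast markers by 0.19 (exact p = 0.0238, adjusted 0.111). Mural cell markers differed by 0.14 (exact p = 0.111) and oligodendrocyte markers by -0.14 (exact p = 0.206). The differences were 0.05 for endothelium, 0.03 for neurones, 0.04 for striatal and amygdalar neurones, -0.07 for GABAergic neurones, -0.04 for astrocytes, 0.04 for oligodendrocyte precursors, -0.07 for microglia and -0.07 for ependyma. By the exact permutation test 4 of the 14 lists had an unadjusted p under 0.05 and 0 an adjusted one; a lone list that separates completely adjusts to 0.111, so it could not pass.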
